A study of Mus musculus with 4 samples.

Results

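Remote ventricular myocardium is the name used here for muscle-rich areas under set limits on marker genes of inflamed, stressed or atrial tissue. It was defined spot by spot in Visium spatial transcriptomes of mouse hearts. The limits do not make these areas free of stress or acute-phase transcripts, as values below show for the ICI-alone sections. A spot, a small area of tissue read out under 1 barcode, was taken when it had 5000 or more UMIs (unique molecular identifiers), at least 1% of them from Myh6, the alpha heavy chain of cardiac myosin, and low levels of the other genes of the rule. These limits were Myh7 under 3000 CPM (counts per 1000000 UMIs), Gbp6 under 800 CPM, Arg1 and Mmp12 together under 0.4% of UMIs, and the atrial genes Myl7, Myl4, Sln, Bmp10 and Mybphl together under 1%. Of 10744 spots under tissue, 3554 met the rule, and 7033 other spots also had 5000 or more UMIs. All mice were wild type FVB/NJ animals immunized with MyHCα peptide and treated with anti-PD-1 and anti-CTLA-4, the dual immune checkpoint inhibitors (ICIs). The anti-IL17A group (2 sections) also received an antibody neutralizing IL-17A, and the ICI-alone group (2 sections), in which the labels record myocarditis, did not; the labels describe it as mitigated in the antibody group. Each group had 1 section in batch 1 (replicate 1) and 1 in batch 2 (replicate 2). The labels give no age and no time of collection, and no section without ICIs was analysed here. Whether each section is from its own mouse is not stated, and p-values therefore cover only the spread among these 4 sections, which may be technical.

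Working ventricular muscle contracts through the sarcomere, burns mainly fatty acids and keeps a steep calcium gradient with the pump SERCA2a. Under load or injury it reactivates fetal genes such as Nppa and Ankrd1. IL-17A is a cytokine of T cells that acts on stromal and epithelial cells and, through NF-kappa-B, IkappaB-zeta and C/EBP factors, raises neutrophil-attracting chemokines, lipocalin 2, calprotectin and acute-phase proteins. Interferon gamma, made by T and NK cells, raises guanylate-binding proteins and antigen presentation.

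The remote spots were spread unevenly over the sections. They made up 59.6% and 27.9% of the spots of 5000 or more UMIs in anti-IL17A replicates 1 and 2 (1489 and 712 spots), against 39.5% and 12.1% in ICI-alone replicates 1 and 2 (984 and 369 spots). The condition that removed most spots differed. In the anti-IL17A sections 670 and 1559 spots failed on Gbp6, an interferon-induced guanylate-binding protein, and 427 and 433 failed on Myh6. In the ICI-alone sections 136 and 6 spots failed on Gbp6, 1370 and 2251 on Myh6, and 137 and 804 on Myh7, the beta myosin heavy chain of stressed muscle. The atrial condition removed 163 spots of anti-IL17A replicate 2 and no spot of the other sections. The same rule therefore took its spots from unlike remainders of tissue in the 2 groups, and any group of genes that follows Gbp6, Myh6 or Myh7 was bounded by the choice of spots.

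Spots near the limits were most frequent for Gbp6 in the anti-IL17A sections and for Myh6 in ICI-alone replicate 1. In ICI-alone replicate 2, 23 spots inside and 49 outside lay within 10% of the Myh7 limit, against 28 and 29 for the Myh6 limit. In anti-IL17A replicate 2, the nearest spots inside and outside the Gbp6 limit had 799 and 800 CPM, with 137 and 138 spots within 10% of it on either side. In ICI-alone replicate 1, the nearest spots on either side of the Myh6 limit had 1.00% and 0.997% of UMIs, with 83 inside and 65 outside within 10% of it.

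**Figure D1:**
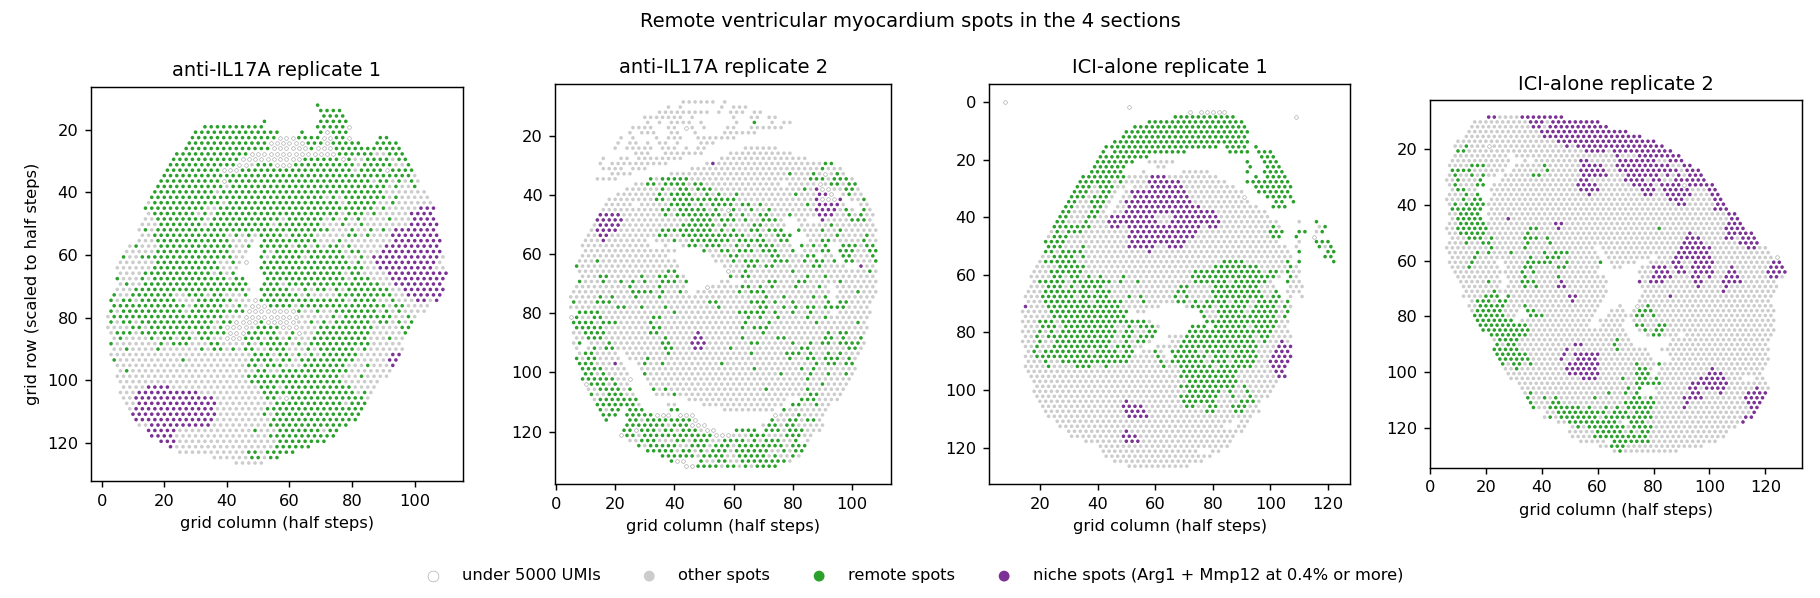
Spots of the 4 sections on the capture grid (axes are grid column and scaled grid row), with remote spots in green, niche spots with Arg1 and Mmp12 at 0.4% of UMIs or more in purple, other spots in grey and spots under 5000 UMIs in white. Remote spots form a near-continuous sheet in anti-IL17A replicate 1 (largest patch 97.4% of them) and broken patches in the other sections.

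The defining markers of ventricular muscle were high in the spots taken. Myh6, which the rule required, was at 29795 and 21664 CPM in the anti-IL17A sections, against 20304 and 17163 CPM in the ICI-alone sections. The median remote spot had 2.80% and 2.27% of its UMIs from Myh6, against 2.02% and 1.69%. The ICI-alone spots thus lay nearer the limit of 1%, and the part of this in other differences was not tested. Myl2, the ventricular regulatory light chain, was at 17618 and 13139 CPM in the anti-IL17A sections, against 13919 and 10208 CPM in the ICI-alone sections. Mb, myoglobin, was at 20047 and 16375 CPM in the anti-IL17A sections, against 15628 and 12752 CPM in the ICI-alone sections. Of the 20 sarcomere genes listed, 19 were measured, and their summed level outside the rule was 80866 and 64014 CPM in the anti-IL17A sections, against 78336 and 65736 CPM in the ICI-alone sections. With both scaled by library size, the other spots of the same section had 0.463 to 0.758 times the level of the remote spots. Macrophage transcripts were low but present: the list of 18 markers, 17 of them measured, summed to 587 and 943 CPM in the anti-IL17A sections, against 1067 and 1344 CPM in the ICI-alone sections. No marker of the T cell, macrophage or neutrophil lists was at 0 in all 4 sections, so the spots were muscle-rich areas and not pure cardiomyocytes. Contrasts between remote and other spots are descriptions, since the rule drew that line.

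Summed over the spots, the 4 sections gave 27594465 and 7820373 UMIs in the anti-IL17A group and 23026097 and 5699162 UMIs in the ICI-alone group. The median remote spot held 18492 and 10666 UMIs in the anti-IL17A sections and 23193 and 15350 UMIs in the ICI-alone sections. A count of 3 in these sums equals 0.109 and 0.384 CPM in the anti-IL17A sections, against 0.130 and 0.526 CPM in the ICI-alone sections, for counting error only. A total of 1670 barcodes occurred in all 4 sections, where a barcode marks the same place on the grid and not the same cell. Fewer cells of a type and less RNA per cell cannot be told apart in such sums.

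The first comparison asked how the remote spots differed when IL-17A was neutralized. Levels are TMM-normalized CPM, log2 fold changes are anti-IL17A over ICI-alone, and adjusted p-values come from edgeR's quasi-likelihood test over 13311 genes. A total of 3 genes fell (0.0225% of those tested) and 0 rose (0%): S100a9 and S100a8, the subunits of the neutrophil alarmin calprotectin, and Prg4, the joint lubricant lubricin. S100a9 was at 5.36 and 7.61 CPM in the anti-IL17A sections, against 50.02 and 59.4 CPM in the ICI-alone sections. S100a8 was at 1.72 and 2.42 CPM in the anti-IL17A sections, against 18.8 and 22.2 CPM in the ICI-alone sections. Prg4 was at 4.23 and 6.40 CPM in the anti-IL17A sections, against 43.9 and 44.0 CPM in the ICI-alone sections. For each of them, both sections of a group lay close together and far from the other group. The log2 fold changes were −3.12 ± 0.22 for S100a9 (SE, n = 2 sections per group, edgeR adjusted p = 0.00717), −3.37 ± 0.26 for S100a8 (edgeR adjusted p = 0.0077) and −3.11 ± 0.22 for Prg4 (edgeR adjusted p = 0.00717). Over 19 other settings the adjusted p ran up to 0.0450 for both calprotectin genes and up to 0.0532 for Prg4, which missed the threshold when only spots of 10000 or more UMIs were used.

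S100a8 (chr3:90669071-90670034) and S100a9 (chr3:90692630-90695721) are neighbours on chromosome 3 in mm10, transcribed from opposite strands, and Prg4 lies at chr1:150449412-150466221. The promoter windows of the calprotectin pair are shown because the pair moved together. They run from 250 bases before to 50 bases after the RefSeq start on GRCm38.p6, at chr3:90668821-90669120 (plus strand) and chr3:90695672-90695971 (minus strand), read 5′ to 3′ with matches to TTNNGNAA (a C/EBP pattern) and TATAAA (the TATA box) in capitals.

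S100a8: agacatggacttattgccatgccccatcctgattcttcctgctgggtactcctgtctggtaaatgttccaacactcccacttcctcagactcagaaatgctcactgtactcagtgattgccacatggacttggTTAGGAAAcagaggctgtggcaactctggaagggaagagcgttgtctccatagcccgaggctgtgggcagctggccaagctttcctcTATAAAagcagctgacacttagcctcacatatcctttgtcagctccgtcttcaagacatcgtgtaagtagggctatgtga

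S100a9: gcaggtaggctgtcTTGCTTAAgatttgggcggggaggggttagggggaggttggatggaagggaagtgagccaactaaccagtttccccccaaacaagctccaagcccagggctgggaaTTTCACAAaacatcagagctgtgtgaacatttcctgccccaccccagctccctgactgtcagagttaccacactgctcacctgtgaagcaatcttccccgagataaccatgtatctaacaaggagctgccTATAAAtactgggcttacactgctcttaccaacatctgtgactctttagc

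On both strands the S100a8 window held 1 match to TTNNGNAA and the S100a9 window held 2, and each held 1 match to TATAAA. The TATAAA match began 30 bases before the RefSeq start in S100a8 but at the start itself in S100a9, so the 2 are not placed alike. The 2 motifs do not overlap in these windows. Of 32851 promoter windows of the same length, 40.7% held TTNNGNAA and 13.6% held TATAAA. Prg4 is named only.

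S100a9 and S100a8 were each seen in a minority of the remote spots of every section, with or without thinning. With every spot thinned to 5000 UMIs, S100a9 was seen in 2.15% (95% Wilson interval 1.53% to 3.02%) and 3.93% (2.73% to 5.62%) of remote spots in the anti-IL17A sections, against 14.5% (12.5% to 16.9%) and 17.9% (14.3% to 22.1%) in the ICI-alone sections. Without thinning the shares were 6.25% and 6.88% in the anti-IL17A sections, against 40.5% and 37.7% in the ICI-alone sections. In the other spots, thinned in the same way, S100a9 was seen in 14.8% and 7.68% of spots in the anti-IL17A sections, against 55.0% and 60.4% in the ICI-alone sections. Remote spots of the ICI-alone sections thus held S100a9 at shares close to or above those of the other spots of the anti-IL17A sections. Intervals cover counting error only.

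The S100a9 to S100a8 ratio of the remote sums was 3.11 and 3.15 in the anti-IL17A sections and 2.66 and 2.67 in the ICI-alone sections. Prg4 was seen, after thinning, in 1.75% and 3.09% of remote spots in the anti-IL17A sections and in 15.4% and 17.3% in the ICI-alone sections.

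Other neutrophil genes lay at very low levels in remote muscle. The list of 15 neutrophil markers, all measured and 13 of them testable, summed to 23.4 and 79.8 CPM in the anti-IL17A sections, against 334 and 666 CPM in the ICI-alone sections. Lcn2, the siderophore-binding lipocalin 2, which stromal and muscle cells also make, contributed most of it in every section but anti-IL17A replicate 1, with 6.52 and 50.8 CPM in the anti-IL17A sections, against 240 and 522 CPM in the ICI-alone sections. Ly6g, the surface antigen that defines mouse neutrophils, stayed at or below 0.499 CPM in the remote spots of every section. In the other spots it was at or below 0.809 CPM, scaled by library size, so it was barely seen in either class of spots. Cxcr2, the receptor for neutrophil-attracting chemokines, was at 0.487 and 0.362 CPM in the anti-IL17A sections, against 2.49 and 4.47 CPM in the ICI-alone sections (log2 fold change −2.85, edgeR adjusted p = 0.187). The share of neutrophils in the calprotectin difference was not tested.

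The batch number on the labels pairs the sections across the groups, and with it as a block 27 genes were higher (0.203% of those tested) and 127 lower (0.954%) with the antibody, the 3 genes above among them. The blocked fit also estimates a batch term from the same few sections. Less is left to judge spread within them, so its calls rest more on spread pooled across genes. Genes called in the blocked fit alone are given with its adjusted p and named as such. Counts of list members called in it, given below, are to be read beside these shares of all genes. A total of 1571 genes had an unadjusted p under 0.05 without the block. DESeq2 called 34 genes higher and 143 lower, and the count depended on single sections: without anti-IL17A replicate 2, edgeR called 347 genes higher and 889 lower.

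**Figure D2:**
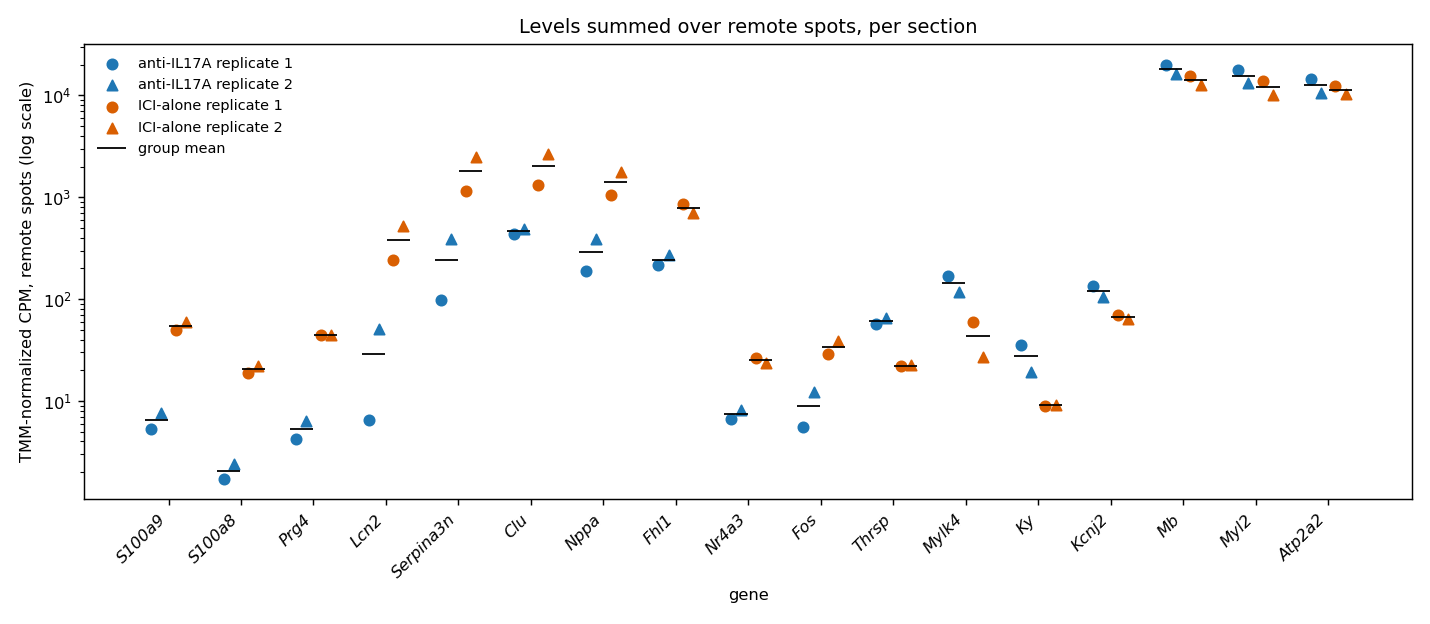
TMM-normalized CPM (log axis) of 17 genes summed over the remote spots of each section, anti-IL17A sections in blue and ICI-alone sections in orange, with circles for replicate 1, triangles for replicate 2 and bars for the group means. S100a9, S100a8 and Prg4 separate the groups with little spread within them, while Lcn2 and Serpina3n also vary between the sections of a group.

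Targets of IL-17 and acute-phase genes had negative median log2 fold changes in remote muscle, and more of them passed in the blocked fit than without it. Of 24 genes in the IL-17 response list, 23 were measured and 19 tested. Of these, 2 fell without the block and 8 were lower with it, and none rose. The 2 that fell were S100a9 and S100a8, already given above, which the neutrophil list also holds. Lcn2 is in the neutrophil, IL-17 response and acute-phase lists and Saa3 in the last 2, so these lists are not independent. The median log2 fold change of the IL-17 response list was −1.19, against 0.00366 for all genes tested, and −1.11 in the other spots. For 12 members both anti-IL17A sections lay below both ICI-alone sections, and for 1 above, where 21.7% of all genes lay in each of these arrangements. The median came to −0.39 without the conditions on Myh7 and Gbp6 and to −0.53 without anti-IL17A replicate 1.

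Mmp3, stromelysin 1, was at 0.974 and 4.95 CPM in the anti-IL17A sections, against 16.4 and 43.5 CPM in the ICI-alone sections (log2 fold change with the block −3.57, adjusted p = 0.00625 in the blocked edgeR fit). Lcn2 passed in the same fit (log2 fold change −4.25, adjusted p = 0.0177), as did the chemokine gene Cxcl5 and the serum amyloid gene Saa3 (adjusted p = 0.0449 and 0.0322). Cxcl5 was at 3.07 and 16.1 CPM in the anti-IL17A sections, against 33.9 and 49.9 CPM in the ICI-alone sections. Il17ra, the signalling receptor subunit, was at 7.23 and 15.8 CPM in the anti-IL17A sections, against 14.3 and 18.6 CPM in the ICI-alone sections, with overlap between groups (edgeR adjusted p = 0.602). Il6 did not exceed 5.51 CPM in any section.

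Acute-phase genes had a median log2 fold change of −1.49 over 14 members tested (−1.30 in the other spots), with 9 lower in the blocked fit and none past the threshold without the block. Serpina3n, a secreted serine protease inhibitor, was at 98.5 and 385 CPM in the anti-IL17A sections, against 1143 and 2492 CPM in the ICI-alone sections (log2 fold change with the block −3.12, adjusted p = 0.0068 in the blocked edgeR fit). Its relative Serpina3m was at 0.675 and 1.81 CPM in the anti-IL17A sections, against 5.35 and 16.9 CPM in the ICI-alone sections. Lrg1, a leucine-rich glycoprotein of the acute phase and of activated endothelium, was at 92.7 and 145 CPM in the anti-IL17A sections, against 393 and 451 CPM in the ICI-alone sections (edgeR adjusted p = 0.119 without the block and 0.0139 with it). Cp, the copper carrier ceruloplasmin, was at 78.3 and 90.0 CPM in the anti-IL17A sections, against 151 and 180 CPM in the ICI-alone sections. Haptoglobin (Hp) and the B cell chemokine gene Cxcl13 passed with the block as well, with ICI-alone replicate 2 far above the other sections. Hp was at 3.93 and 12.6 CPM in the anti-IL17A sections, against 17.3 and 122 CPM in the ICI-alone sections. Cxcl13 was at 0.824 and 4.23 CPM in the anti-IL17A sections, against 6.12 and 48.0 CPM in the ICI-alone sections. In each of these genes the lowest ICI-alone section still lay above the highest anti-IL17A section, an arrangement that 21.7% of all genes had.

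Complement genes, which opsonize and attract leukocytes, had a median log2 fold change of −0.94 over 14 members tested (−0.55 in the other spots), with 8 lower in the blocked fit. The anaphylatoxin receptor gene C3ar1 was at 28.0 and 38.2 CPM in the anti-IL17A sections, against 60.05 and 68.8 CPM in the ICI-alone sections. C5ar1 was at 19.1 and 33.3 CPM in the anti-IL17A sections, against 45.9 and 71.1 CPM in the ICI-alone sections. The protease gene C1ra was at 50.6 and 78.7 CPM in the anti-IL17A sections, against 109 and 172 CPM in the ICI-alone sections. All 3 passed only with the block (adjusted p = 0.0334, 0.026 and 0.0245). Macrophage markers were lower in 13 of 17 members without overlap between groups, where 21.7% of all genes lay so, with a median of −0.69. Of them, 2 passed in the blocked fit: Cd68 (30.2 and 49.0 CPM in the anti-IL17A sections, against 65.1 and 79.1 CPM in the ICI-alone group) and the mannose receptor gene Mrc1 (82.6 and 113 CPM in the anti-IL17A sections, against 141 and 199 CPM in the ICI-alone group).

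Matrix genes were lower in the remote spots too. Their list had a median log2 fold change of −1.08 over 27 members (−1.75 in the other spots). Of these, 21 lay lower without overlap and 1 higher, where 21.7% of all genes lay in each arrangement. In the blocked fit 10 were lower, against 0.954% of all genes, and none passed without the block. Col3a1, the type III collagen chain, was at 378 and 688 CPM in the anti-IL17A sections, against 1387 and 3056 CPM in the ICI-alone sections (adjusted p = 0.00765 in the blocked edgeR fit). Col1a1 was at 160 and 246 CPM in the anti-IL17A sections, against 413 and 1375 CPM in the ICI-alone sections (adjusted p = 0.0334 in the blocked fit), with ICI-alone replicate 2 highest. Postn, periostin of activated fibroblasts, differed from these: it was at 7.87 and 10.0 CPM in the anti-IL17A sections, against 7.71 and 17.4 CPM in the ICI-alone sections, with the groups overlapping. Fibroblast markers, which share Col1a1, Col1a2 and Col3a1 with the matrix list, had a summed level of 2868 and 3488 CPM in the anti-IL17A sections, against 5115 and 8990 CPM in the ICI-alone sections. Of the 13 markers, 4 were lower in the blocked fit, among them Pi16 of adventitial fibroblasts, at 55.7 and 80.9 CPM in the anti-IL17A sections, against 155 and 203 CPM in the ICI-alone sections (adjusted p = 0.0161). The part of fibroblast content in these differences was not tested.

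The list of epicardial and mesothelial genes, which holds Prg4, did not move as a unit. Clu, the chaperone clusterin, which many cell types make, was at 440 and 483 CPM in the anti-IL17A sections, against 1329 and 2686 CPM in the ICI-alone sections (log2 fold change with the block −2.03, adjusted p = 0.0251 in the blocked edgeR fit). The mesothelial genes Upk1b (1.65 and 1.57 CPM in the anti-IL17A sections, against 0.454 and 0.344 CPM in the ICI-alone group) and Lrrn4 (1.54 and 1.45 CPM in the anti-IL17A sections, against 0.363 and 0.860 CPM in the ICI-alone group) were low in the remote spots of every section and did not pass (edgeR adjusted p = 0.268 and 0.349). In the other spots Upk1b was at 11.4 and 6.03 CPM in the anti-IL17A sections, against 1.26 and 2.74 CPM in the ICI-alone sections, scaled by library size. The list's median was 1.13 over 9 members tested, while its summed level, set mostly by Clu, was lower in the antibody sections. In the other spots the list's median was 1.53, and 5 members passed as higher and 3 as lower, where 3.76% and 6.3% of all genes did. The direction of the median in remote spots turned under some other settings: it was −2.59 over the 2 members left at 10 CPM or more, and −1.03 over the 4 members left with stricter thresholds.

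Stress and early-response genes formed another group. In the fetal and stress list, 12 of 16 members tested lay lower without overlap and 1 higher, where 21.7% of all genes lay in each arrangement. The median was −0.71 (−0.76 in the other spots), 2 were lower in the blocked fit, and none passed without it. Nppa, atrial natriuretic peptide, was at 189 and 386 CPM in the anti-IL17A sections, against 1049 and 1768 CPM in the ICI-alone sections (log2 fold change with the block −2.33, adjusted p = 0.00555 in the blocked edgeR fit). Mybpc2, a fast-type myosin-binding protein, was at 34.7 and 42.3 CPM in the anti-IL17A sections, against 85.5 and 94.6 CPM in the ICI-alone sections (adjusted p = 0.018 in the blocked fit). Ankrd1, a stretch-sensing sarcomere protein, was at 3189 and 5316 CPM in the anti-IL17A sections, against 10850 and 9836 CPM in the ICI-alone sections, but did not pass in either fit (adjusted p = 0.267 without the block and 0.0583 with it). Acta1, skeletal actin, overlapped between groups (817 and 1077 CPM in the anti-IL17A sections, 2249 and 753 CPM in the ICI-alone sections). Nppb did not exceed 0.544 CPM in any section and was not tested. Myh7, capped by the rule, averaged 166 and 259 CPM in the anti-IL17A sections, against 1142 and 1544 CPM in the ICI-alone sections, values given without a test. In the other spots it was at 327 and 450 CPM, against 831 and 1780 CPM, scaled by library size. In ICI-alone replicate 1 it was thus higher in remote than in other spots. In ICI-alone replicate 2 the same held for Serpina3n and Lrg1 (2002 and 281 CPM in its other spots), while in the remaining sections both were higher in the other spots.

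Fhl1, a LIM protein of the stretch-sensing complex at titin, was at 216 and 272 CPM in the anti-IL17A sections, against 850 and 707 CPM in the ICI-alone sections (log2 fold change −1.68 ± 0.21, SE, edgeR adjusted p = 0.119, and 0.023 with the block). Among immediate-early genes, the median was −0.39 over 17 members, with 3 lower in the blocked fit. These were Fos (5.58 and 12.2 CPM in the anti-IL17A sections, against 29.0 and 38.4 CPM in the ICI-alone sections), Ier3 (73.4 and 74.5 CPM, against 171 and 156 CPM) and the nuclear receptor gene Nr4a1 (19.2 and 24.9 CPM, against 45.5 and 50.9 CPM). Its relative Nr4a3, outside that list, was at 6.67 and 8.21 CPM in the anti-IL17A sections, against 26.6 and 23.6 CPM in the ICI-alone sections, but narrowly missed the threshold without the block (log2 fold change −1.78 ± 0.20, SE, edgeR adjusted p = 0.0622). Such genes also respond to how tissue is handled before fixation, on which the labels say nothing for these groups.

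The metallothioneins, metal-binding proteins induced by cytokines and glucocorticoids, were lower in the blocked fit. Mt2 was at 51.6 and 224 CPM in the anti-IL17A sections, against 618 and 983 CPM in the ICI-alone sections (adjusted p = 0.0272), and Mt1 at 378 and 632 CPM, against 1276 and 1696 CPM (adjusted p = 0.0177). Gpx3, the secreted glutathione peroxidase, was the third member of that list to pass with the block (adjusted p = 0.0322). Hmox1, haem oxygenase 1, did not pass (edgeR adjusted p = 0.292).

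Core contractile, calcium and energy genes showed small differences. The median log2 fold change was 0.03 over 18 sarcomere genes, −0.02 over 18 calcium-handling genes, 0.22 over 28 genes of fatty acid oxidation and 0.08 over 26 genes of the respiratory chain, and edgeR called 0 members of these 4 lists with or without the block. Unadjusted p-values under 0.05 were found for 1 sarcomere, 0 calcium, 1 fatty acid oxidation and 0 respiratory chain genes, and DESeq2 called 1 sarcomere gene lower and 1 fatty acid oxidation gene higher. In the other spots of the same sections the medians of the 4 lists were 0.38, 0.34, 0.60 and 0.42. Those spots differed in muscle content: Myh6 was at 13231 and 16213 CPM in the anti-IL17A sections, against 4362 and 3575 CPM in the ICI-alone sections, scaled by library size. Tnnt2, cardiac troponin T, was at 16299 and 13330 CPM in the anti-IL17A sections, against 19510 and 17529 CPM in the ICI-alone sections. Atp2a2, which encodes SERCA2a, was at 14666 and 10568 CPM in the anti-IL17A sections, against 12263 and 10302 CPM in the ICI-alone sections. Its regulator Pln was at 8985 and 5846 CPM in the anti-IL17A sections, against 9340 and 7305 CPM in the ICI-alone sections. Ryr2, the calcium release channel, was at 2192 and 1986 CPM in the anti-IL17A sections, against 1837 and 1737 CPM in the ICI-alone sections. Cd36, the fatty acid transporter, was at 2779 and 2158 CPM in the anti-IL17A sections, against 2555 and 2406 CPM in the ICI-alone sections, with groups that overlapped. Actc1 was not analysed here.

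Some muscle genes were higher with the antibody. Thrsp, a regulator of lipid synthesis induced by thyroid hormone, was at 56.6 and 65.5 CPM in the anti-IL17A sections, against 21.9 and 22.5 CPM in the ICI-alone sections (log2 fold change 1.46 ± 0.16, SE, edgeR adjusted p = 0.0622 without the block and 0.0177 with it). Mylk4, a myosin light chain kinase, was at 168 and 117 CPM in the anti-IL17A sections, against 59.4 and 26.8 CPM in the ICI-alone sections (adjusted p = 0.0177 in the blocked edgeR fit). Ky, a muscle-maintenance protein at the Z disc, was at 35.8 and 19.2 CPM in the anti-IL17A sections, against 8.93 and 9.12 CPM in the ICI-alone sections (adjusted p = 0.0367 in the blocked fit). In all 3 genes the groups did not overlap, as for 21.7% of all genes in that direction.

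Among 19 potassium and sodium channel genes the median was 0.33 (0.98 in the other spots), and 2 were higher in the blocked fit. Kcnj2, the inward rectifier Kir2.1, was at 134 and 105 CPM in the anti-IL17A sections, against 70.0 and 63.3 CPM in the ICI-alone sections (adjusted p = 0.0449 in the blocked fit). Scn4a, a skeletal-type sodium channel, was at 50.7 and 40.2 CPM in the anti-IL17A sections, against 25.8 and 16.3 CPM in the ICI-alone sections (adjusted p = 0.0334 in the blocked fit). The glycerol channel gene Aqp7, the semaphorin receptor gene Plxnb1 and the integrin gene Itgb6 were higher in the same fit (adjusted p = 0.0296, 0.0334 and 0.0334). Ucp3, a mitochondrial carrier of fatty acid metabolism, was at 20.4 and 24.8 CPM in the anti-IL17A sections, against 11.5 and 11.4 CPM in the ICI-alone sections, but did not pass (adjusted p = 0.209 without the block and 0.0552 with it). Dio3, which inactivates thyroid hormone, was at 0.562 and 0.483 CPM in the anti-IL17A sections, against 2.40 and 5.68 CPM in the ICI-alone sections (adjusted p = 0.209 without the block and 0.0519 with it).

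Interferon gamma targets, among which Gbp6 itself was capped by the rule, were unevenly placed across the 4 sections. The interferon gamma list summed to 5139 and 8706 CPM in the anti-IL17A sections, against 5081 and 1412 CPM in the ICI-alone sections, so that batch 1 gave nearly equal sums and batch 2 did not. The median log2 fold change was 1.07 over 22 members tested (0.51 in the other spots). Of these, 12 lay higher without overlap and 0 lower, where 21.7% of all genes lay in each arrangement. None passed in edgeR with or without the block or in DESeq2, while 11 had an unadjusted p under 0.05. Some members passed as higher under another setting. The median was 0.58 without ICI-alone replicate 2, 0.39 without anti-IL17A replicate 2 and 1.60 without the conditions on Myh7 and Gbp6. Cd274, the ligand PD-L1, was at 108 and 249 CPM in the anti-IL17A sections, against 63.8 and 22.5 CPM in the ICI-alone sections, but did not pass (edgeR adjusted p = 0.267). Medians were 0.50 over 17 genes of MHC class I presentation and 0.54 over 19 type I interferon genes, with none past the threshold in edgeR or DESeq2 and 3 and 5 of them at an unadjusted p under 0.05. Over the other settings the class I median ran between 0.13 and 0.89 and the type I median between −0.12, without anti-IL17A replicate 2, and 1.17.

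T cell transcripts were sparse in remote muscle. All 16 T cell markers were measured, and they summed to 71.0 and 100 CPM in the anti-IL17A sections, against 50.9 and 55.2 CPM in the ICI-alone sections. With both scaled by library size, the other spots of the same section had 2.66 to 6.29 times the sum of the remote spots. Of the 16 markers, 11 lay higher without overlap and 0 lower, where 21.7% of all genes lay in each arrangement. None passed, and the median was 0.71. Cd3e was at 6.75 and 8.94 CPM in the anti-IL17A sections, against 4.22 and 4.13 CPM in the ICI-alone sections (edgeR adjusted p = 0.299). Ifng, interferon gamma itself, was at 1.72 and 3.50 CPM in the anti-IL17A sections, against 0.816 and 0.860 CPM in the ICI-alone sections (edgeR adjusted p = 0.327). The part of T cells in the interferon levels was not tested.

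**Figure D3:**
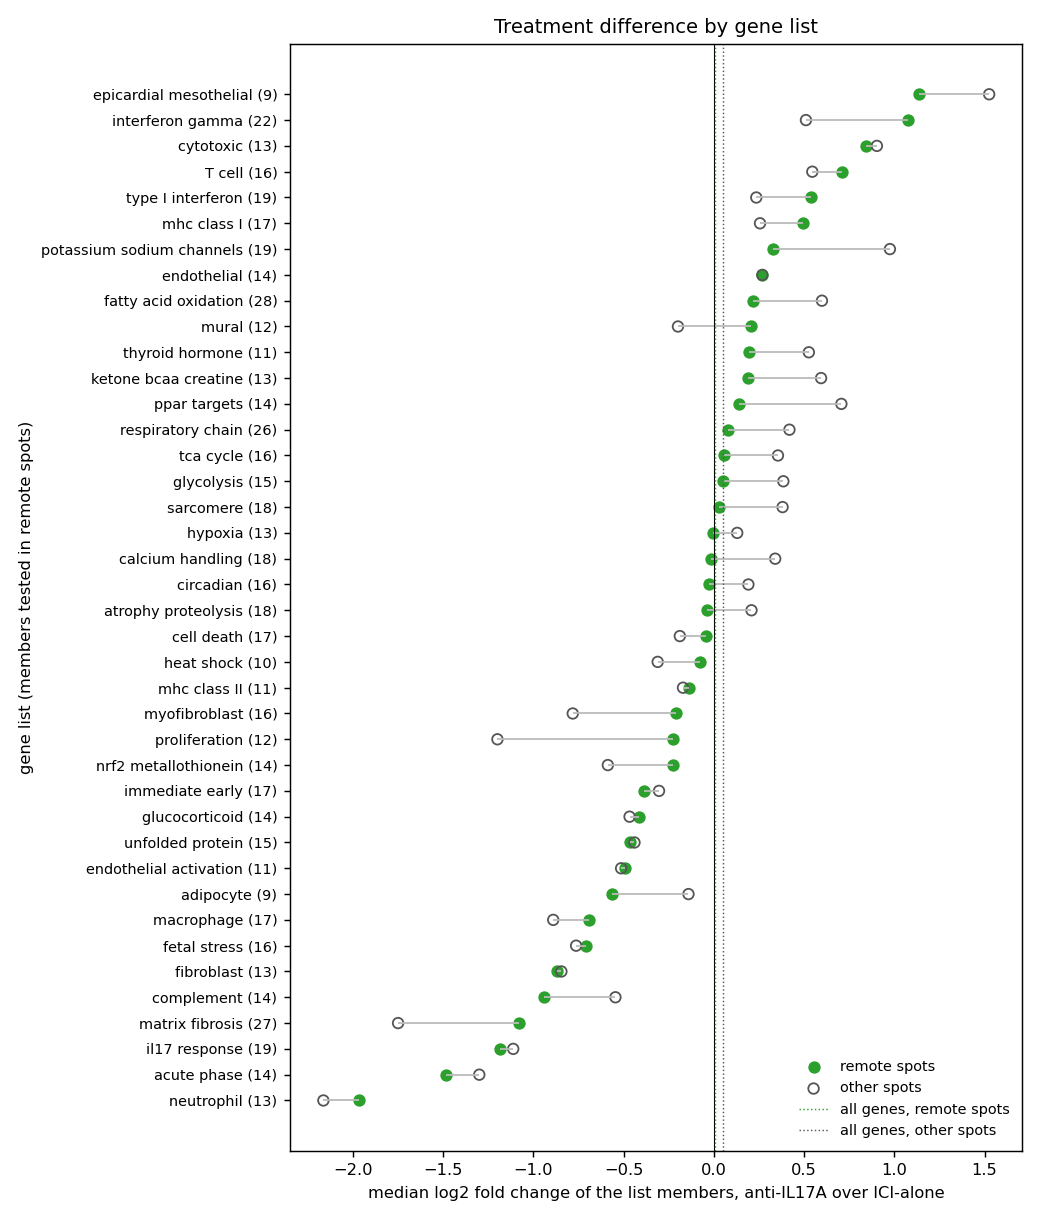
Median log2 fold change (anti-IL17A over ICI-alone) of the members of each gene list with 9 or more members tested, in remote spots (filled green) and in the other spots of the same sections (open), with dotted lines for the medians of all genes. Neutrophil, acute-phase, IL-17 response, matrix and complement lists lie to the left in both classes of spots, while the sarcomere and calcium lists lie near 0 in remote spots. Some lists share genes, among them the neutrophil, IL-17 response and acute-phase lists.

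The second comparison asked whether the treatment difference in remote spots differed from that in the other spots of the same sections. In the other spots, 688 genes were higher (3.76%) and 1153 lower (6.3%) of 18298 tested. These spots were unlike tissue in the 2 groups. In the anti-IL17A sections 565 and 1217 of them failed the rule only on Gbp6. In the ICI-alone sections 1033 and 1402 failed only on Myh6, so much of that contrast sets muscle beside Myh6-poor tissue. The part of this in the calls and in the contrasts with remote spots was not tested. The other spots summed to 20024672 and 25034075 UMIs in the anti-IL17A sections, against 50125794 and 60546096 UMIs in the ICI-alone sections, fewer than the remote spots in anti-IL17A replicate 1 and more in the other 3 sections. The difference between the 2 treatment differences was tested directly, with the section as a block, and 0 of 17262 genes passed in either direction (0% each), while 938 had an unadjusted p under 0.05. DESeq2 called 4 genes positive and 1 negative, and with the batch as a block 17 were called in each direction. For S100a9 the remote difference exceeded the other by 0.12 ± 0.39 on the log2 scale (SE), for S100a8 by −0.45 ± 0.36 and for Prg4 by −0.14 ± 0.36, and none of these passed (edgeR adjusted p = 0.972, 0.902 and 0.967).

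The genes with the smallest p in that test did not pass but passed with the block. Postn had a log2 fold change of −0.43 in remote spots and −2.31 in the other spots (difference 1.76 ± 0.23, SE, edgeR adjusted p = 0.309, and 0.0167 with the block). The endoplasmic reticulum factor gene Creb3l1 (−0.51 in remote and −2.23 in other spots) and the collagen chaperone gene Fkbp10 (−0.47 and −1.97) had the same arrangement, and both are genes of collagen-producing cells (adjusted p = 0.309 each, and 0.0179 each with the block). In the opposite direction, Lrtm1, a muscle membrane protein, had 0.92 in remote and 2.44 in other spots (adjusted p = 0.309, and 0.0374 with the block), and its difference of −1.58 turned to 0.35 without the conditions on Myh7 and Gbp6. Apod, apolipoprotein D, had −1.47 in remote spots and −0.07 in the other spots (adjusted p = 0.309, and 0.0221 with the block).

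Position on the grid was not part of the rule. The niche is the set of spots with Arg1 and Mmp12 at 0.4% of UMIs or more, 239 and 48 spots in the anti-IL17A sections and 213 and 468 in the ICI-alone sections. The median remote spot lay 15 and 11 grid steps from it in the anti-IL17A sections and 10 and 9 steps in the ICI-alone sections, so the groups were not matched in distance. Within the band of 10 to 14 steps, chosen after distances were seen, 418 and 208 remote spots of the anti-IL17A sections could be set beside 498 and 119 spots of the ICI-alone sections. There S100a9 was at 4.8 and 6.7 CPM in the anti-IL17A sections, against 40.4 and 57.5 CPM in the ICI-alone sections, scaled by library size. In the same band edgeR called 2 genes higher and 22 lower, S100a9, S100a8 and Prg4 among the lower ones.

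Levels also changed with distance within a section. The IL-17 response list summed, in anti-IL17A replicate 1, to 1207 CPM under 5 steps and 276 CPM at 20 or more steps, and in anti-IL17A replicate 2 to 1241 and 517 CPM. In ICI-alone replicate 1 it summed to 1642 CPM under 5 steps and 858 CPM at 15 to 19 steps. ICI-alone replicate 2 had too few spots under 5 steps to be read. In that section the IL-17 response list summed to 1669 CPM at 5 to 9 steps and 1382 CPM at 15 to 19 steps. The interferon gamma list summed to 11779 CPM under 5 steps and 3579 CPM at 20 or more steps in anti-IL17A replicate 1, but to 3861 CPM under 5 steps and 4727 CPM at 15 to 19 steps in ICI-alone replicate 1. In anti-IL17A replicate 2 it summed to 11283 CPM under 5 steps and 8518 CPM at 20 or more steps, and in ICI-alone replicate 2 to 1478 CPM at 5 to 9 steps and 979 CPM at 15 to 19 steps. The difference with distance thus varied among sections and was not tested. Spots of 1 section are not replicates, and bins under 20 spots were not read.

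**Figure D4:**
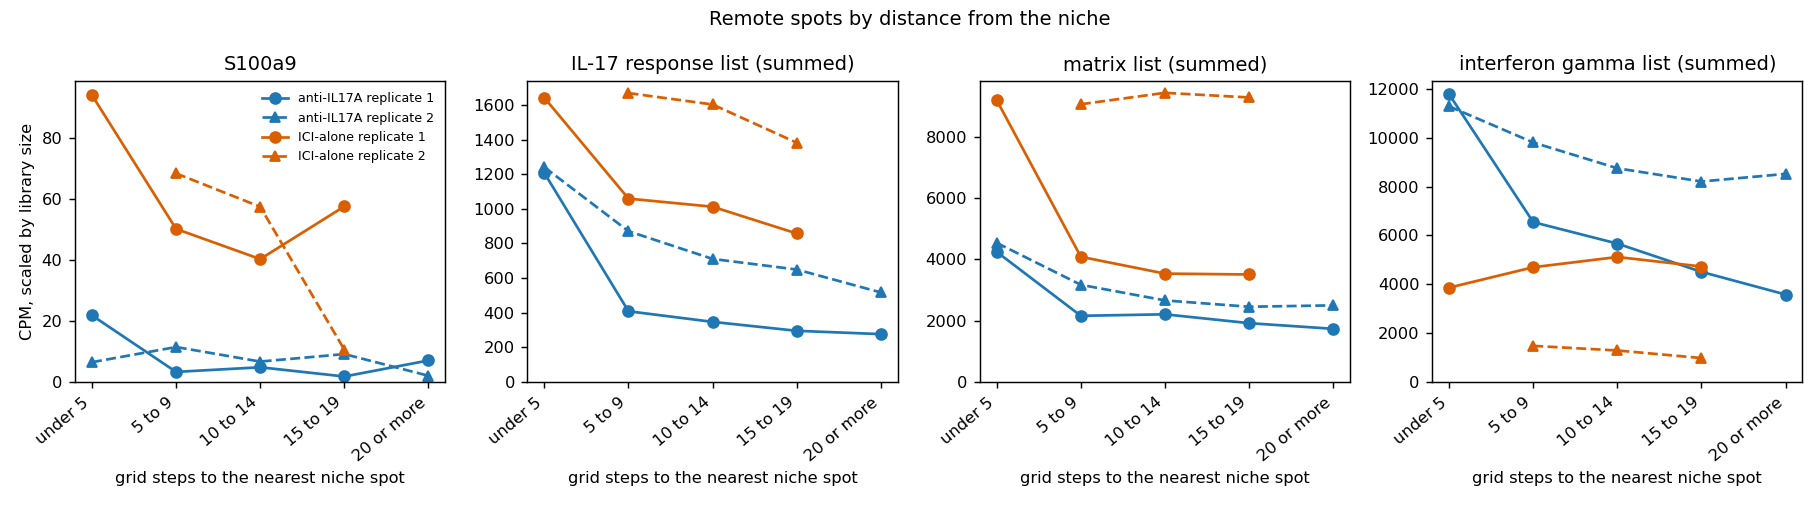
Level in remote spots (CPM scaled by library size, axes from 0) by grid steps to the nearest niche spot, for S100a9 and the summed IL-17 response, matrix and interferon gamma lists, with anti-IL17A sections in blue, ICI-alone sections in orange, circles for replicate 1 and triangles for replicate 2. Bins of fewer than 20 spots are left out, and S100a9 is at 21.9 CPM or less in every bin of the anti-IL17A sections.

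Remote spots were not uniform among themselves. Moran's I, which is near 0 for a scattered gene and near 1 where adjacent spots share its level, was computed over adjacent remote spots thinned to 5000 UMIs for 6080 genes with at least 20 CPM in all 4 sections. Its median over genes (mean of the sections) was 0.00557, and 186 genes reached 0.1. Outside the genes of the rule, Ankrd1 was the most patterned, with 0.517 and 0.845 in the anti-IL17A sections and 0.918 and 0.906 in the ICI-alone sections. Acta1 had 0.509 and 0.842 in the anti-IL17A sections and 0.798 and 0.499 in the ICI-alone sections, and Nppa 0.549 and 0.379, against 0.583 and 0.623. Leaving out predicted genes, the next were Serpina3n, the class II genes Cd74 and H2-Aa, Lrtm1, the prostaglandin synthase gene Ptgds, the macrophage gene Retnla, Col3a1, Mt2 and the interferon-induced GTPase gene Igtp, with means from 0.486 for Serpina3n to 0.397 for Igtp. Serpina3n, Col3a1 and Mt2 were less patterned in both anti-IL17A sections than in both ICI-alone sections, where their levels were also higher (for Mt2, 0.129 and 0.416, against 0.573 and 0.583). A low level leaves more sampling noise between neighbours, so a lower I does not by itself show a flatter pattern.

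**Figure D5:**
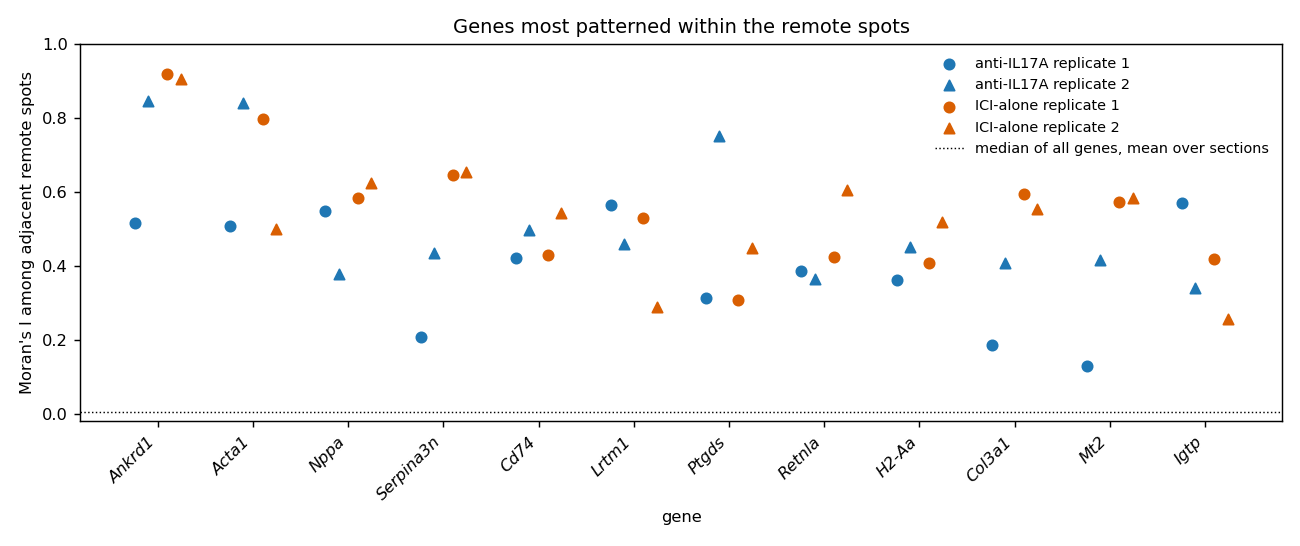
Moran's I among adjacent remote spots, thinned to 5000 UMIs, of the 12 genes with the highest mean over sections, leaving out genes of the rule and predicted genes (Gm and Rik names), with anti-IL17A sections in blue, ICI-alone sections in orange, circles for replicate 1 and triangles for replicate 2. The dotted line is the median over all genes (0.00557), and all 12 genes lie above it in all 4 sections.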

How the data were processed

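Visium libraries of 5 µm heart sections were read as raw UMI counts per gene and spot, which the authors made with Space Ranger 2.1.0 per the file headers and with genome build mm10 per the submitters' processing notes. Those notes also name Seurat 5.1.0, with no role. A score per gene (Moran's I over all spots under tissue), as the authors deposited it, was read beside the Moran's I computed here and is not printed. Of the probe set, the headers and labels say nothing.

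The rule was applied to 10744 spots, and counts of the remote spots were summed per section. The sums were tested with edgeR 4.0.16 (R 4.3.3, TMM, filterByExpr, quasi-likelihood test) and Benjamini-Hochberg adjustment at 0.05 over 13311 genes. The 10 genes of the rule were left out of the test but kept in library sizes. The treatment difference in remote spots was set against that in other spots by an interaction term with section as a block. Intervals on shares of spots are Wilson intervals at 95%. The exact permutation test of 2 against 2 sections cannot go below p = 0.333, so none is given. The labels record the batch number, which pairs the sections. Deviations of same-batch sections correlated at 0.253 over 13311 genes.

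Genes named are a fixed panel, the genes past the threshold (or the 5 of smallest p), up to 4 members of smallest p per list and the 12 genes of highest Moran's I, predicted genes (Gm and Rik names) skipped. Genes called only in the blocked fit were added after their values were seen. The members and lists were chosen with earlier results of these data known. Alternatives were DESeq2 1.42.0, other scaling and filters, each section left out, the batch block, thinning, other thresholds and other distances. Some genes that the rule would name are not reported here. The scripts were tested on simulated data. No doublet caller was run on spots. Python 3.11.15, numpy 2.4.6, scipy 1.17.1, pandas 2.3.3 and matplotlib 3.10.9 were used.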

Additional observations from a re-analysis of the deposited data

How the results depend on the processing

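S100a8 and S100a9 passed under all 19 alternatives and Prg4 under 18, missing at spots of 10000 or more UMIs (adjusted p = 0.0532). The counts of other calls depended on the setting, and the cause was not tested. Against 0 genes higher and 3 lower, edgeR with the batch as a replicate block called 27 higher and 127 lower, DESeq2 34 and 143, no filter on low counts 14 and 104, stricter thresholds 26 and 114, spots without T cell UMIs and with few macrophage UMIs 20 and 95, no condition on Myh7 or Gbp6 4 and 5, spots with 6 neighbours 1 and 9, and the band of 10 to 14 steps (chosen after seeing the data) 2 and 22. Spots thinned to 5000 UMIs gave 5 lower, and spots 3 or more steps from the niche 1 higher and 4 lower. Leaving out 1 section gave 3 to 347 higher and 3 to 889 lower, with both highest counts without anti-IL17A replicate 2. With 1 section left in a group, that section is assumed to vary like the others.

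For the difference between remote and other spots, 0 genes passed in either direction. The replicate block gave 17 positive and 17 negative, DESeq2 4 and 1, stricter thresholds 128 and 335, few leukocyte UMIs 82 and 101, and the band 8 and 7. Leaving out 1 section gave 0 to 1255 positive and 0 to 1144 negative, with both highest counts without anti-IL17A replicate 1. The median Moran's I of the 12 named genes was 0.458, and 0.604 without thinning. The median distance became 16 steps in anti-IL17A replicate 2, 11 in ICI-alone replicate 1 and 12 in ICI-alone replicate 2 with the niche at 1% of UMIs, and 7 in ICI-alone replicate 2 at 0.2%.

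Signs turned, as log2 fold changes, for genes that passed neither comparison. Scaled by library size, the value was 0.021 for Cd36. With no filter, the value was −0.035 for B2m. At 10 CPM or more, the value was 0.023 for Cd36. With thinned sums, the value was 0.0083 for Cilp. With thinned spots, the value was 0.054 for Postn, 0.015 for Cd36 and −0.084 for Cycs. Without the Myh7 and Gbp6 conditions, the value was 0.021 for Cd86. With stricter thresholds, the value was −0.094 for B2m, 0.088 for Cd36 and −0.25 for Trbc2. With 6 neighbours, the value was 0.0022 for Cd36. With few leukocyte UMIs, the value was −0.0567 for B2m, 0.16 for Postn and 0.018 for Serpinf1. In the band, the value was 0.048 for Cd36 and 0.27 for Cilp. Leaving out 1 section in turn gave −0.18 to 0.15 for Cd36, −1.30 to 0.34 for Acta1, −0.49 to 0.094 for Pln, −1.03 to 0.12 for Ptgds, −0.35 to 0.47 for B2m, −0.97 to 0.15 for Postn, −0.076 to 0.36 for Atp2a2, −0.17 to 1.12 for Pdk4, −0.68 to 0.065 for Serpinf1, −0.29 to 1.92 for Retnla, −0.82 to 0.063 for Cd86, −0.67 to 0.039 for Cd74 and −0.34 to 1.05 for Ciita. Without the Myh7 and Gbp6 conditions, the difference between spot classes was 0.37 for Scn4b and 0.35 for Lrtm1.

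The smallest sum, 5699162 UMIs, limits genes near 0.526 CPM. The 2 sections per group limit every test.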
